A study of Homo sapiens with 9 samples.

Results

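The 10 genes described here encode the chaperonins of human cells. TCP1, CCT2, CCT3, CCT4, CCT5, CCT6A, CCT7 and CCT8 encode the 8 subunits of the cytosolic chaperonin, and HSPD1 and HSPE1 encode the mitochondrial chaperonin and its lid. The members were chosen by name and not by a cut on measured values, although earlier results of these data were known. They are 10 of the 19706 usable gene symbols in the table. All 10 passed the filter of at least 1 scaled TPM in at least 3 libraries. Each also stood far above it in every library, so none entered through a single line.

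Polyadenylated RNA was measured in 3 untreated human neuroblastoma lines, and each line gave 3 libraries. MYCN is amplified in Kelly and in BE(2)C and not in SH-SY5Y. Because only 1 line lacks the amplification, MYCN status and line identity cannot be told apart. In bulk RNA, fewer cells with a transcript and less of it per cell cannot be told apart either. The libraries are numbered within a line without mention of separate cultures, so the p-values speak for the scatter of these 9 libraries alone, and that scatter may be technical. Both comparisons with SH-SY5Y use the same 3 SH-SY5Y libraries.

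Chaperonins are barrel-shaped protein folding machines that enclose an unfolded protein and release it folded through cycles of ATP binding and hydrolysis. The cytosolic form, called CCT or TRiC, is built of stacked rings in which each of the different subunits takes its own place, so the particle needs all of them in equal amounts. Actin and tubulin are its best known clients, and prefoldin delivers many of them. The mitochondrial form is made of a single kind of subunit, HSPD1, and is closed by rings of the smaller HSPE1. It folds proteins imported into the mitochondrial matrix, and both genes are also known targets of the heat shock and mitochondrial stress responses.

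The values are on the TPM scale, a share of all transcripts corrected for transcript length, so levels can be set side by side between genes, although several genes that every cell uses stand implausibly low in the table. Synthetic spike-in RNA took 83.7% to 90.6% of each deposited total and was left out. The gene values were rescaled to a common total and divided by a trimmed-mean factor, between 0.758 and 1.17, which gives the scaled TPM used below. MYCN stood at 5970 ± 77.5 scaled TPM in Kelly, 6050 ± 1090 in BE(2)C, against 27.2 ± 1.01 in SH-SY5Y (SD, n = 3 each), as the labels give it. The 5 sympathetic neuroblast markers PHOX2A, HAND2, GATA3, ISL1 and DBH were at 1 or more in all 9 libraries. The summed level of 10 leukocyte, epithelial and fibroblast markers was 5.16 to 5.54 in Kelly, 17.3 to 39.6 in BE(2)C, against 11.8 to 14.9 in SH-SY5Y, with CD3E and KRT5 listed at 0 throughout and PTPRC listed at 0 in BE(2)C and SH-SY5Y. Their part in the results was not tested. After centring on the spike-in median of each library, limma called 49 of 61 abundant spike-ins for Kelly against SH-SY5Y and 54 for Kelly against BE(2)C, with shifts of up to 1.38 and 1.20 on the log2 scale. For BE(2)C against SH-SY5Y it called 0.

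All 10 chaperonin genes were abundantly expressed in the 3 lines, between percentiles 87.2 and 99.4 of the 13077 tested genes by line mean. The 8 cytosolic subunit genes summed to 3310 ± 106 scaled TPM in Kelly, 3400 ± 333 in BE(2)C, against 2330 ± 27.5 in SH-SY5Y (SD, n = 3 each). The sums of the Kelly and BE(2)C libraries overlapped, and both lay above those of SH-SY5Y. HSPD1 and HSPE1 together summed to 1180 ± 103 scaled TPM in Kelly, 2420 ± 195 in BE(2)C, against 826 ± 61.2 in SH-SY5Y. Here all 3 lines were separate, with BE(2)C highest. The mean of the mitochondrial pair over the mean of the cytosolic subunits was 1.42 ± 0.107 in Kelly, 2.86 ± 0.13 in BE(2)C, against 1.41 ± 0.0921 in SH-SY5Y. This ratio is taken within a library, so a single factor per library does not change it. Shifts of single transcripts between libraries, as seen in the spike-ins with Kelly, can change it.

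**Figure D1:**
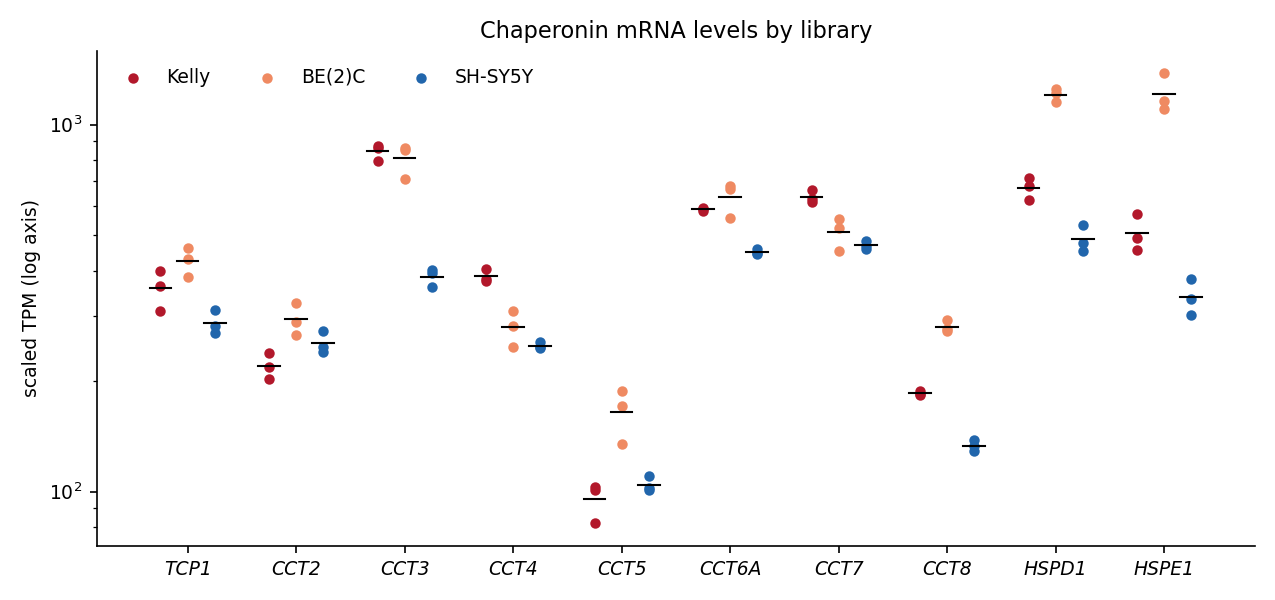
Scaled TPM (log axis) of the 10 chaperonin genes in each of 9 libraries, with a bar at the mean of each line (3 libraries). HSPD1 and HSPE1 stand at 1100 to 1380 in BE(2)C against 456 to 714 in Kelly and 302 to 533 in SH-SY5Y, while CCT5 is the lowest of the 8 CCT genes in every library.

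Within the cytosolic set the subunit mRNAs were far from equal. CCT3 was the highest in all 3 Kelly and all 3 BE(2)C libraries and CCT7 in all 3 SH-SY5Y libraries, and CCT5 was the lowest in all 9. The highest subunit gene exceeded the lowest by 8.92 ± 0.674 times in Kelly, 4.95 ± 0.374 times in BE(2)C, against 4.50 ± 0.233 times in SH-SY5Y (SD, n = 3 each). CCT5 shares 30.1% of its exonic bases with AC012640.4 on the opposite strand, and the use of strand in counting is not known. GENCODE names 4 pseudogenes after CCT6A, 2 each after TCP1, CCT4, CCT5 and CCT7, 1 after CCT8 and 0 after CCT2 and CCT3. None is in the table, so levels compared between subunits are uncertain. In SH-SY5Y the order of the line means was CCT7 (469), CCT6A (450), CCT3 (385), TCP1 (289), CCT2 (254), CCT4 (250), CCT8 (133) and CCT5 (104 scaled TPM). The ranges of TCP1 and CCT2 overlapped, and so did those of CCT2 and CCT4. Within every SH-SY5Y library TCP1 was above CCT2, while CCT2 and CCT4 changed places between libraries. In BE(2)C the order was CCT3 (809), CCT6A (635), CCT7 (509), TCP1 (425), CCT2 (295), CCT8 (282), CCT4 (280) and CCT5 (165), where CCT7 overlapped with TCP1, and CCT2, CCT8 and CCT4 with each other. In Kelly it was CCT3 (845), CCT7 (635), CCT6A (588), CCT4 (386), TCP1 (358), CCT2 (220), CCT8 (185) and CCT5 (95.4), where only CCT4 and TCP1 overlapped. Within every Kelly library CCT4 was still above TCP1. Within every BE(2)C library CCT7 was above TCP1 and CCT2 above CCT4, while CCT8 changed places with CCT2 and with CCT4.

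Shares of the summed CCT level also do not depend on a single factor per library, and describe where the lines differed. Shifts of single transcripts between libraries stay in the shares. Spike-ins shifted by up to 1.38 for Kelly against SH-SY5Y and 1.20 for Kelly against BE(2)C on the log2 scale. Differences between the libraries and between the lines thus cannot be told apart in the Kelly shares. CCT3, the gamma subunit, took 25.5 ± 0.725% of the CCT sum in Kelly, 23.8 ± 0.44% in BE(2)C, against 16.5 ± 1.12% in SH-SY5Y (SD, n = 3 each). CCT8, the theta subunit, took 5.60 ± 0.236% in Kelly, 8.32 ± 0.617% in BE(2)C, against 5.71 ± 0.163% in SH-SY5Y. CCT3 therefore set both amplified lines apart from SH-SY5Y, and CCT8 set BE(2)C apart from the other lines. CCT2, the beta subunit, had 6.62 ± 0.322% in Kelly, 8.67 ± 0.35% in BE(2)C, against 10.9 ± 0.637% in SH-SY5Y, with no overlap between any of the lines. CCT4, the delta subunit, had 11.7 ± 0.233% in Kelly, 8.23 ± 0.216% in BE(2)C, against 10.7 ± 0.221% in SH-SY5Y. CCT7, the eta subunit, had 19.2 ± 1.38% in Kelly, 15.0 ± 0.136% in BE(2)C, against 20.1 ± 0.462% in SH-SY5Y. CCT4 and CCT7 thus both took their smallest share in BE(2)C. CCT5, the epsilon subunit, had 2.87 ± 0.268% in Kelly, 4.82 ± 0.467% in BE(2)C, against 4.46 ± 0.152% in SH-SY5Y, with Kelly below both other lines. TCP1, the alpha subunit, had 10.8 ± 1.02% in Kelly, 12.5 ± 0.267% in BE(2)C, against 12.4 ± 0.825% in SH-SY5Y. Its Kelly libraries lay below those of BE(2)C and overlapped with SH-SY5Y. CCT6A, a zeta subunit, had 17.8 ± 0.474% in Kelly, 18.7 ± 0.344% in BE(2)C, against 19.3 ± 0.192% in SH-SY5Y, with Kelly slightly below both other lines. No test was run on the shares.

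**Figure D2:**
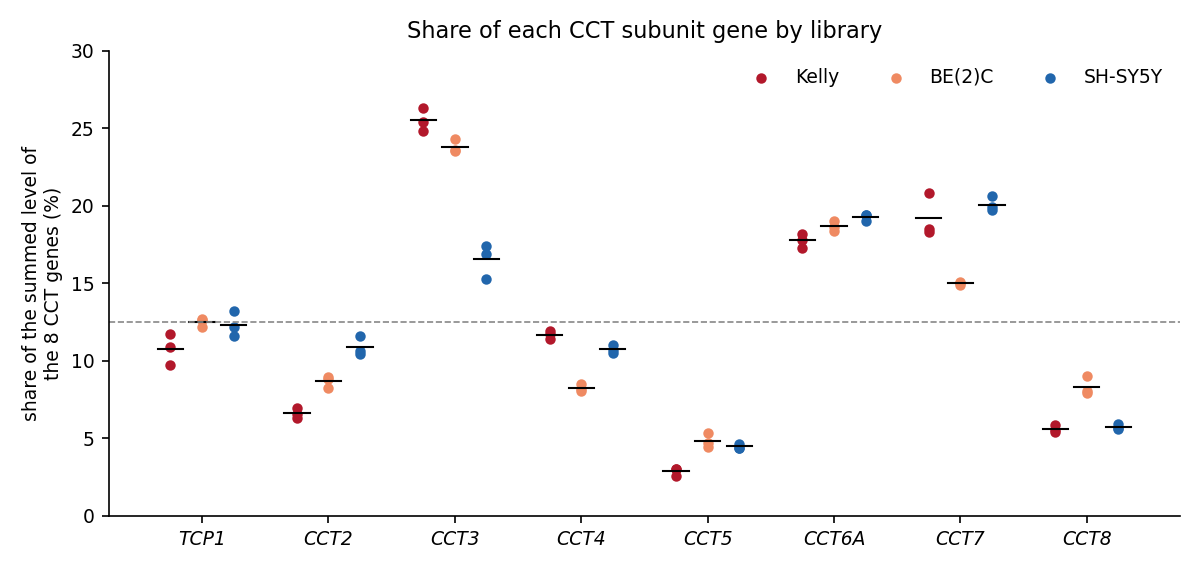
Share of each of the 8 CCT subunit genes in their summed level (percent), per library, with a bar at the line mean (n = 3). The dashed line marks an equal share; CCT3 lies at 15.3% to 17.4% in SH-SY5Y and at 23.5% to 26.3% in the amplified lines, and CCT5 lies at 2.56% to 5.35%.

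BE(2)C had higher levels of most chaperonin mRNAs than SH-SY5Y, led by the mitochondrial pair. limma called 7 of the 10 higher and 0 lower at an adjusted p under 0.05 over all 13077 tested genes, while 59.4% of all tested genes were called in this comparison, 28.6% higher and 30.7% lower. The median log2 fold change of the members was 0.60, against -0.04 over all tested genes. The number called is thus near the share of all genes called, and the members differ from that background in the direction of the calls, for which no test was made. The calls of CCT3, CCT8, HSPD1 and HSPE1 held under all 5 other ways of scaling the libraries. Those of TCP1, CCT5 and CCT6A were lost with library totals only (0.09, 0.18 and 0.03 on the log2 scale) and with the values as deposited (-0.02, 0.07 and -0.08), and that of TCP1 also with quantile normalization (0.18). The median of all tested genes was -0.44 with library totals and -0.35 as deposited, but 0.02 with quantile normalization. Set against the all-gene median of its own scaling, each of the 7 called members was above it under all 6 scalings, by 0.14 or more. All of these scalings but quantile normalization differ only by a single factor per library. Subtracting the median takes most of that factor out by construction, so their agreement here is no separate check.

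CCT3 (chr1:156308968-156367873, minus strand; positions of genes are those of the GENCODE annotation on GRCh38) had 863, 853 and 710 scaled TPM in BE(2)C, against 360, 401 and 395 in SH-SY5Y. The lowest BE(2)C library was well above the highest SH-SY5Y library. The log2 fold change was 1.06 ± 0.09 (SE; limma, adjusted p = 6.52e-06). CCT8 (chr21:29055805-29073797, minus strand) had 294, 278 and 273 scaled TPM in BE(2)C, against 133, 129 and 138 in SH-SY5Y, with 1.07 ± 0.05 and an adjusted p of 3.06e-07. Its libraries were the least scattered of the 10 genes in this comparison, by standard error. TCP1 (chr6:159778498-159789749, minus strand) had 460, 429 and 385 in BE(2)C, against 313, 282 and 271 in SH-SY5Y (0.55 ± 0.11, adjusted p = 0.00149). CCT5 (chr5:10249921-10266412, plus strand) had 171, 188 and 135 in BE(2)C, against 110, 101 and 102 in SH-SY5Y (0.64 ± 0.13, adjusted p = 0.00216). CCT6A (chr7:56051630-56063989, plus strand) had 682, 668 and 555 in BE(2)C, against 457, 447 and 445 in SH-SY5Y (0.49 ± 0.08, adjusted p = 0.000456). In each of these 3 genes the lines did not overlap, and the third BE(2)C library was the lowest of its line. The share of all tested genes without overlap was not counted, so lack of overlap is only a description here and below.

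The remaining 3 subunit genes did not pass. CCT2 (chr12:69585334-69601570, plus strand) had 327, 290 and 267 scaled TPM in BE(2)C, against 274, 240 and 248 in SH-SY5Y (0.21 ± 0.09, adjusted p = 0.0781). CCT4 (chr2:61868089-61888804, minus strand) had 311, 283 and 247 in BE(2)C, against 248, 246 and 256 in SH-SY5Y (0.16 ± 0.08, adjusted p = 0.129). CCT7 (chr2:73233420-73253021, plus strand) had 554, 522 and 453 in BE(2)C, against 466, 459 and 481 in SH-SY5Y (0.12 ± 0.08, adjusted p = 0.222). In all 3 genes the third BE(2)C library lay within the SH-SY5Y range or below it, and without it CCT2, CCT4 and CCT7 passed at 0.28, 0.24 and 0.20 (adjusted p = 0.0319, 0.0103 and 0.0179). With library totals, CCT4 and CCT7 were instead called lower, at -0.30 and -0.35, so no direction can be given for them.

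Promoter windows are shown for CCT3 and CCT8, the cytosolic subunit genes whose BE(2)C calls held under every scaling. The sequences are from RefSeq on GRCh38.p14 and run from 250 bases before to 50 after a start, 5′ to 3′ on the gene's strand. Capitals mark CCAAT, the box bound by the factor NF-Y, here read as ATTGG on the opposite strand, and GGGCGG, the GC box of Sp factors, read as GGGCGG in CCT3 and as CCGCCC in CCT8. CCT3 lies at chr1:156338243-156338542 and CCT8 at chr21:29073599-29073898, both on the minus strand.
CCT3: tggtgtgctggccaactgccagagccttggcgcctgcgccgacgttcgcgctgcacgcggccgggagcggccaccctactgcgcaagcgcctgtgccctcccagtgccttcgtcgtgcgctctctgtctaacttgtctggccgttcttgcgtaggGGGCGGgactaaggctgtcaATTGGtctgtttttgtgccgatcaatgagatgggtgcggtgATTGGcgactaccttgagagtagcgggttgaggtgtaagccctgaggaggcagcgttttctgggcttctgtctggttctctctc
CCT8: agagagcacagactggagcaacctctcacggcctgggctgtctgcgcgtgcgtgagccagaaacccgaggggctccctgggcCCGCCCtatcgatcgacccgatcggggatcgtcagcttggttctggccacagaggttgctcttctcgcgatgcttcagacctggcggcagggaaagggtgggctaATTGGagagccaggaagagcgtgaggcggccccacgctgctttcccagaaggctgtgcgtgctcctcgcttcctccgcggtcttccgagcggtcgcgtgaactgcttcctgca
CCAAT on either strand was found in 34.6% and GGGCGG in 45.0% of all 35116 windows of this length, so neither match sets these promoters apart. Among the 9 members with a window (CCT6A has none in the table), CCAAT was found in TCP1, CCT2, CCT3 and CCT8, and GGGCGG in all but CCT4 and CCT5.

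The mitochondrial pair had the largest differences of the 10 genes between BE(2)C and SH-SY5Y. HSPD1, the barrel subunit (chr2:197486581-197516737, minus strand), had 1250, 1220 and 1150 scaled TPM in BE(2)C, against 475, 453 and 533 in SH-SY5Y. The means were 1210 ± 52.3 in BE(2)C, against 487 ± 41.5 in SH-SY5Y (SD, n = 3 each), a ratio of 2.48, and limma gave 1.31 ± 0.08 on the log2 scale (SE, adjusted p = 9.11e-07). HSPE1, the lid subunit (chr2:197499994-197503457, plus strand), had 1380, 1160 and 1100 in BE(2)C, against 379, 302 and 334 in SH-SY5Y. The means were 1220 ± 148 in BE(2)C, against 338 ± 38.3 in SH-SY5Y, a ratio of 3.59 and a log2 fold change of 1.84 ± 0.12 (adjusted p = 1.49e-06). No library of either gene overlapped between the lines. Over the 5 other scalings the change was 0.73 to 1.27 for HSPD1 and 1.26 to 1.80 for HSPE1, with every call kept.

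HSPE1 was higher relative to HSPD1 in BE(2)C than in the other lines. The ratio of HSPE1 to HSPD1 was 0.732, 0.800 and 0.723 in the Kelly libraries, 1.11, 0.955 and 0.958 in BE(2)C, and 0.797, 0.668 and 0.626 in SH-SY5Y. All BE(2)C values lay above all others, and the ranges of Kelly and SH-SY5Y overlapped. The line means were 0.752 ± 0.0421 in Kelly, 1.01 ± 0.0865 in BE(2)C, against 0.697 ± 0.0888 in SH-SY5Y (SD, n = 3 each), described without a test. Spike-ins shifted by up to 1.20 on the log2 scale between Kelly and BE(2)C. A ratio within a library does not take such shifts out. HSPE1 lies within the annotated span of HSPD1 on the opposite strand, and their exons share 281 bases, which is 6.62% of the exonic bases of HSPD1 and 14.2% of those of HSPE1. The labels do not state that strand was used in counting, so reads from the shared bases cannot be told apart. HSPE1 also shares 192 exonic bases with the readthrough HSPE1-MOB4, which had 0.465, 0.599 and 4.27 scaled TPM in Kelly, 7.40, 0.294 and 0.358 in BE(2)C and is listed at 0 in all SH-SY5Y libraries, and so was under the filter. GENCODE names 17 pseudogenes after HSPD1 and 26 after HSPE1, with 0 of them in the table, so reads that could fall to these copies make both levels uncertain.

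**Figure D3:**
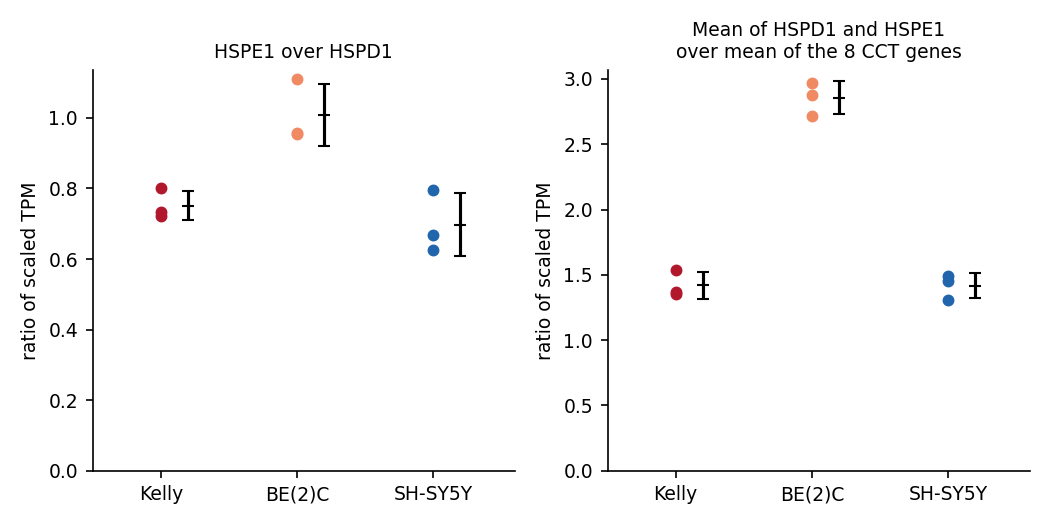
Left, scaled TPM of HSPE1 over HSPD1, and right, the mean of HSPD1 and HSPE1 over the mean of the 8 CCT genes, per library, with mean ± SD of each line (n = 3). BE(2)C lies at 0.955 to 1.11 on the left and 2.72 to 2.97 on the right, above every Kelly and SH-SY5Y library.

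The promoter region of the pair is shown because both genes read outward from it and moved together. HSPD1 has 2 RefSeq starts, whose windows lie at chr2:197500225-197500524 and chr2:197499791-197500090 on the minus strand, and the HSPE1 window lies at chr2:197500129-197500428 on the plus strand. The starts are 105 and 539 bases from that of HSPE1. Capitals in HSPD1 window 1 and in HSPE1 mark CACGTG, the E-box recognised by MYC family proteins among others, which is 1 palindromic stretch at chr2:197500357-197500362 held by both windows, since they share 204 bases. Capitals in HSPD1 window 2 mark 2 overlapping matches of TTCNNGAANNTTC, the inverted repeat form of the heat shock element bound by HSF1, at window positions 6 and 11, counted from 1 at the 5′ end.
HSPD1 window 1: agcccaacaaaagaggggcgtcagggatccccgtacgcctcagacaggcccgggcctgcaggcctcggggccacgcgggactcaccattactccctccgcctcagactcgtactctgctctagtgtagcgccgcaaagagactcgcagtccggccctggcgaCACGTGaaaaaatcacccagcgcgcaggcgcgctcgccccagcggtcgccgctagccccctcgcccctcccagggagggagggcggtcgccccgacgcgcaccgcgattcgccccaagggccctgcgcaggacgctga
HSPD1 window 2: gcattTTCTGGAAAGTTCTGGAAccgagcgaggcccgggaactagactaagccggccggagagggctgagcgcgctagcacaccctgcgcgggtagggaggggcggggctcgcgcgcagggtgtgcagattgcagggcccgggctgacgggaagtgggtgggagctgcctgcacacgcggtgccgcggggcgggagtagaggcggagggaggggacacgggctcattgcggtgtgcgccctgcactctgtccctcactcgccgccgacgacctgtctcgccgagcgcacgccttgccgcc
HSPE1: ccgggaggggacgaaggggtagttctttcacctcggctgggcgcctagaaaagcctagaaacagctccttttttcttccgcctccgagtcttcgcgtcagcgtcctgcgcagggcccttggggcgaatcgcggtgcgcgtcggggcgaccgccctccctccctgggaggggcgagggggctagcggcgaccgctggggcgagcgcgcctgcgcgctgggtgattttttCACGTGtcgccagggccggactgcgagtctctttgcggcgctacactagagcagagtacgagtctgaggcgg
CACGTG was found in 7.26% and TTCNNGAANNTTC, on either strand, in 0.49% of the 35116 windows. Of the windows of all 9 members in the table, those of HSPD1 and HSPE1 were the only ones with either of these. A shorter form of the heat shock element, the same pattern without its first unit, was found in 6.77% of the 35116 windows. Among the members it was found in TCP1, in window 2 of CCT2 and in HSPD1 window 2. The HSPE1 window held neither form of the heat shock element. Each match is a description of the letters in these windows, and binding was not measured.

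Kelly also had more of most chaperonin mRNAs than SH-SY5Y, but by smaller amounts for the mitochondrial pair. limma called 8 of the 10 higher and 0 lower, while 55.3% of all tested genes were called, 28.1% higher and 27.2% lower. The median log2 fold change of the members was 0.45, against 0.00 over all tested genes. With the values as deposited only CCT3 remained higher, while CCT2 and CCT5 were called lower, and the median of all tested genes was then -0.43. Set against the all-gene median of its own scaling, each of the 8 called members was above it under all 6 scalings, by 0.03 for TCP1 as the least, and CCT2 and CCT5 were below it. Here too only quantile normalization is a separate check, since the other scalings differ by a single factor per library. Every member change here was within the 1.38 by which spike-ins shifted between these lines, so a difference between the libraries and between the lines cannot be told apart at this size.

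CCT3 showed the largest difference of the 10 genes, with 795, 874 and 866 scaled TPM in Kelly, against 360, 401 and 395 in SH-SY5Y, and was called under all 5 other scalings. The log2 fold change was 1.13 ± 0.09 (SE; limma, adjusted p = 5.02e-06). CCT4 had 375, 380 and 405 scaled TPM in Kelly, against 248, 246 and 256 in SH-SY5Y (0.62 ± 0.08, adjusted p = 0.000172). CCT7 had 665, 616 and 625 in Kelly, against 466, 459 and 481 in SH-SY5Y (0.44 ± 0.08, adjusted p = 0.00103). Neither gene overlapped between the lines, and both turned in sign with the values as deposited, at -0.09 and -0.27. CCT8 had 188, 183 and 185 in Kelly, against 133, 129 and 138 in SH-SY5Y (0.47 ± 0.05, adjusted p = 6.88e-05). CCT6A had 583, 592 and 589 in Kelly, against 457, 447 and 445 in SH-SY5Y (0.39 ± 0.08, adjusted p = 0.00221). Both were separate between the lines, and turned to -0.23 and -0.32 as deposited.

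HSPD1 had 623, 714 and 679 scaled TPM in Kelly, against 475, 453 and 533 in SH-SY5Y (0.46 ± 0.08, adjusted p = 0.000835). HSPE1 had 456, 571 and 491 in Kelly, against 379, 302 and 334 in SH-SY5Y (0.58 ± 0.12, adjusted p = 0.00264). The lines did not overlap for either gene, and as deposited the changes were -0.25 and -0.13. TCP1 had 310, 363 and 400 in Kelly, against 313, 282 and 271 in SH-SY5Y, and passed narrowly (0.30 ± 0.11, adjusted p = 0.0347). Its lowest Kelly library lay within the SH-SY5Y range, and the call was lost without Kelly replicate 2 or 3 or without SH-SY5Y replicate 2 or 3 (adjusted p = 0.0878, 0.121, 0.0902 and 0.111). It was also lost with library totals, quantile normalization or mitochondrial genes left out (0.17, 0.06 and 0.17) and turned to -0.40 as deposited. CCT2 had 202, 219 and 238 in Kelly, against 274, 240 and 248 in SH-SY5Y, and did not pass (-0.21 ± 0.09, adjusted p = 0.0799). Its lines did not overlap, and it was called lower under each of the 5 other scalings (-0.25 to -0.90). CCT5 had 82.0, 101 and 103 in Kelly, against 110, 101 and 102 in SH-SY5Y (-0.13 ± 0.13, adjusted p = 0.411), with overlapping lines.

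**Figure D4:**
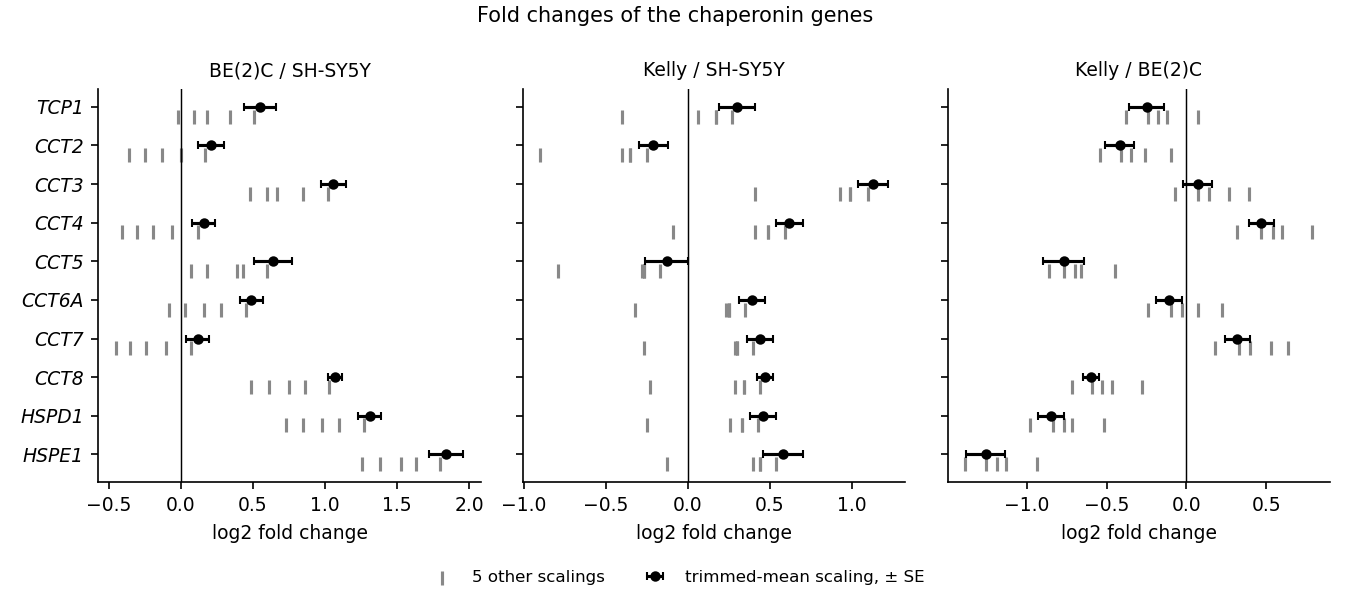
Log2 fold change of the 10 chaperonin genes in 3 comparisons, with trimmed-mean scaling (black points, ± SE from limma, 3 libraries a line) and under 5 other scalings (grey ticks). The ticks of CCT3, CCT5, CCT8, HSPD1 and HSPE1 stay above 0 in BE(2)C over SH-SY5Y, while in Kelly over SH-SY5Y only those of CCT3 do.

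The amplified lines differed from each other in which subunits they had more of. Between Kelly and BE(2)C, limma called 2 of the 10 higher in Kelly and 5 lower, while 52.5% of all tested genes were called, 27.9% higher and 24.6% lower. The median of the members was -0.34, against 0.02 over all tested genes. CCT4 had 375, 380 and 405 scaled TPM in Kelly, against 311, 283 and 247 in BE(2)C (0.47 ± 0.08, adjusted p = 0.00112). CCT7 had 665, 616 and 625 in Kelly, against 554, 522 and 453 in BE(2)C (0.32 ± 0.08, adjusted p = 0.00621). These 2 genes stayed above 0 under every scaling, and their calls were lost only with the values as deposited (0.32 and 0.18).

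Lower in Kelly were HSPE1 (-1.26 ± 0.12, adjusted p = 2.42e-05), HSPD1 (-0.85 ± 0.08, adjusted p = 2.16e-05), CCT5 (-0.77 ± 0.13, adjusted p = 0.000869), CCT8 (-0.60 ± 0.05, adjusted p = 1.73e-05) and CCT2 (-0.42 ± 0.09, adjusted p = 0.00407). HSPE1 averaged 506 ± 58.9 scaled TPM in Kelly and 1220 ± 148 in BE(2)C, and HSPD1 averaged 672 ± 45.8 in Kelly and 1210 ± 52.3 in BE(2)C (SD, n = 3 each). CCT5 averaged 95.4 ± 11.6 in Kelly and 165 ± 27.1 in BE(2)C. None of these 5 genes had overlapping libraries between the lines, and the share of all tested genes without overlap was not counted. The calls of HSPE1, HSPD1, CCT5 and CCT8 held under all 5 other scalings, and that of CCT2 was lost with library totals (-0.10). Spike-ins shifted by up to 1.20 between these lines. The changes of all members but HSPE1 were smaller than that, and HSPE1 exceeded it under some scalings only (-1.39 as deposited and -1.26 with median-of-ratios, but -0.94 with library totals, -1.13 with quantile normalization and -1.19 with mitochondrial genes out) and was at -1.17 without 1 of the libraries. CCT3 (0.07 ± 0.09, adjusted p = 0.54), CCT6A (-0.11 ± 0.08, adjusted p = 0.278) and TCP1 (-0.25 ± 0.11, adjusted p = 0.0722) did not pass. CCT3 was called higher in Kelly with library totals (0.39) and with quantile normalization (0.27). Without BE(2)C replicate 3, TCP1 and CCT6A were called lower in Kelly, at -0.32 and -0.20 (adjusted p = 0.0414 and 0.00655), and without Kelly replicate 3 TCP1 was too, at -0.33 (adjusted p = 0.0313).

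Across the 9 libraries the members fell into patterns that can only be described, since the libraries come in 3 lines and share a common scaling. On log2 scaled TPM, Pearson's r over 9 libraries was 0.99 between HSPD1 and HSPE1, and CCT8 ran with them at 0.99 and 0.98. CCT4 and CCT7 had an r of 0.97 with each other and of at most 0.10 with HSPD1 or HSPE1. CCT3 and CCT6A were at 0.94, and CCT2 and CCT5 at 0.89, while CCT2 was at -0.47 with CCT4 and at -0.48 with CCT7.

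Genes near the members on the chromosome were set beside them. Within 5 Mb of CCT4, on the short arm of chromosome 2, 31 other genes were tested, and their median log2 fold change of Kelly over BE(2)C was 0.51, with 19 called higher and 2 lower. Around CCT7, also on 2p, the median of 71 genes was 0.64, with 40 higher and 3 lower. CCT4 and CCT7 themselves were at 0.47 and 0.32, below the median of their neighbours. Around HSPD1 and HSPE1 the median of 38 genes was -0.60, with 3 higher and 23 lower, while HSPD1 and HSPE1 were at -0.85 and -1.26. Around CCT5 the median of 16 genes was -0.47, with 4 higher and 9 lower, beside -0.77 for CCT5. Around CCT8 the median of 33 genes was -0.16, beside -0.60 for CCT8. In BE(2)C over SH-SY5Y the neighbours of HSPD1 and HSPE1 had a median of 0.46, with 21 higher and 1 lower, beside 1.31 and 1.84 for the pair. In Kelly over SH-SY5Y the same neighbours had a median of -0.15, with 9 higher and 10 lower, beside 0.46 and 0.58 for the pair. The neighbours of CCT4 and CCT7 were at -0.56 and -0.58 in BE(2)C over SH-SY5Y, where CCT4 and CCT7 were at 0.16 and 0.12. The 141 neighbours of CCT3 had a median of -0.35 there, with 16 higher and 61 lower, while CCT3 was at 1.06. For Kelly over SH-SY5Y the neighbours of CCT3 had a median of -0.17 and CCT3 stood at 1.13. The number of gene copies was not measured, and the part of the neighbourhood in the members' changes was not tested.

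**Figure D5:**
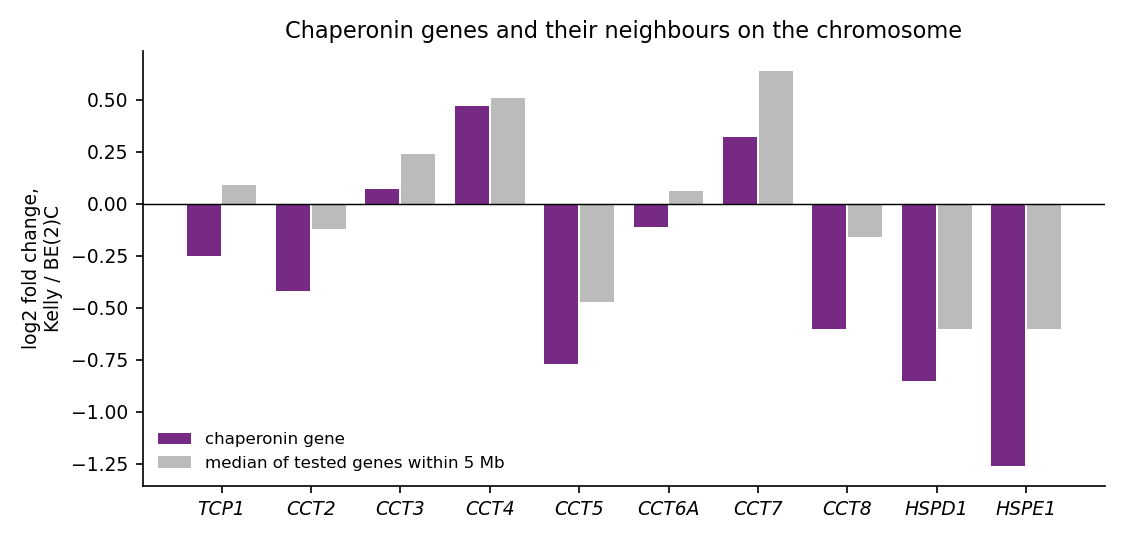
Log2 fold change of Kelly over BE(2)C for each chaperonin gene (purple) beside the median of the tested genes within 5 Mb of it (grey; 13 to 141 genes, the member itself left out). TCP1 and CCT6A have the opposite sign to their neighbours' median, and the other members have the same sign.

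Other genes of protein folding were read from lists of known partners. For every list below, the background is the share of all tested genes called. In BE(2)C over SH-SY5Y, 28.6% of these were higher and 30.7% lower. The shares were 28.1% and 27.2% in Kelly over SH-SY5Y, and 27.9% and 24.6% in Kelly over BE(2)C. No test set a list against this background. Of 14 mitochondrial chaperones and proteases besides the pair, 6 were called higher and 2 lower in BE(2)C than SH-SY5Y (median 0.17), 7 higher and 1 lower in Kelly than in SH-SY5Y (0.36), and 3 higher and 3 lower in Kelly than in BE(2)C (-0.10). HSPA9, the Hsp70 of the matrix that hands proteins to HSPD1, averaged 518 ± 21.8 scaled TPM in Kelly, 754 ± 34.7 in BE(2)C, against 235 ± 8.56 in SH-SY5Y (SD, n = 3 each). It was higher than in SH-SY5Y by 1.68 ± 0.06 in BE(2)C (SE; adjusted p = 4.56e-08) and 1.14 ± 0.06 in Kelly (adjusted p = 4.38e-07), under every scaling. TRAP1, the Hsp90 of mitochondria, was higher than in SH-SY5Y by 1.09 ± 0.09 in BE(2)C and by 0.98 ± 0.09 in Kelly, the Kelly call lost with the values as deposited. GRPEL1, the nucleotide exchange factor of HSPA9, was higher than in SH-SY5Y by 0.75 ± 0.12 in BE(2)C, lost with library totals and as deposited, and was lower, at -0.36 ± 0.12, in Kelly, a call lost with quantile normalization. SPG7, a protease of the inner membrane, was higher than in SH-SY5Y by 0.76 ± 0.16 in BE(2)C and by 0.71 ± 0.16 in Kelly, both lost as deposited and the BE(2)C call also with library totals. AFG3L2, its partner subunit, was lower in BE(2)C than SH-SY5Y by -0.24 ± 0.07 and higher in Kelly than in BE(2)C by 0.75 ± 0.07, under every scaling. The counts for the list itself turned with the scaling, to 2 higher and 4 lower in BE(2)C with library totals and to 2 higher and 7 lower in Kelly as deposited, both against SH-SY5Y.

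The partners of the cytosolic chaperonin moved in both directions. Of 12 prefoldin subunits and CCT cofactors, 4 were called higher and 2 lower in BE(2)C than SH-SY5Y (median 0.01), 3 higher and 4 lower in Kelly than in SH-SY5Y (-0.14), and 1 higher and 6 lower in Kelly than in BE(2)C (-0.29). PFDN1, a prefoldin subunit, averaged 119 ± 5.01 scaled TPM in Kelly, 146 ± 11.1 in BE(2)C, against 74.6 ± 1.16 in SH-SY5Y. It was higher than in SH-SY5Y by 0.96 ± 0.07 in BE(2)C, under every scaling, and by 0.66 ± 0.07 in Kelly, lost as deposited. VBP1, another prefoldin subunit, was higher in BE(2)C than SH-SY5Y by 0.74 ± 0.07, lost as deposited. PDCL3, a phosducin-like protein that binds CCT, was lower than in SH-SY5Y by -0.76 ± 0.20 in BE(2)C and -1.48 ± 0.20 in Kelly. TXNDC9, another phosducin-like protein, was lower in Kelly by -1.26 ± 0.22 against SH-SY5Y and by -1.07 ± 0.22 against BE(2)C. UXT, a prefoldin-like protein, was lower in Kelly than in BE(2)C by -0.88 ± 0.08. With the values as deposited, 1 was higher and 5 lower in BE(2)C, and 0 higher and 8 lower in Kelly, against SH-SY5Y, and with library totals 3 were higher and 3 lower in Kelly than in BE(2)C. The changes of PDCL3 against SH-SY5Y, of TXNDC9 and of UXT held under every scaling.

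Of 6 tubulin folding cofactors, 2 were called higher and 1 lower in BE(2)C than SH-SY5Y, 1 higher and 1 lower in Kelly than in SH-SY5Y, and 3 higher and 2 lower in Kelly than in BE(2)C. These counts turned with the scaling, to 1 higher and 4 lower in BE(2)C with library totals or as deposited and to 0 higher and 5 lower in Kelly as deposited, both against SH-SY5Y, and to 1 higher and 2 lower as deposited in Kelly over BE(2)C. TBCC, which acts on the tubulin dimer, was higher in BE(2)C than SH-SY5Y by 1.11 ± 0.14, and TBCD, its partner in that step, was lower by -0.88 ± 0.10, both under every scaling. Of 20 genes of proteins folded by CCT, 8 were called higher and 8 lower in BE(2)C than SH-SY5Y (4 and 12 with library totals only), 7 higher and 5 lower in Kelly than in SH-SY5Y (3 and 13 as deposited), and 5 higher and 6 lower in Kelly than in BE(2)C (10 and 2 with library totals only). TUBA1C, an alpha tubulin, averaged 281 ± 3.96 scaled TPM in Kelly, 7.57 ± 1.36 in BE(2)C, against 49.6 ± 2.22 in SH-SY5Y. TUBB, a beta tubulin, had 31.0, 28.6 and 29.2 in Kelly, 24.9, 25.7 and 23.0 in BE(2)C, against 0.275 and 0.414 in SH-SY5Y, where the second library lists it at 0. Tubulin genes have near-identical copies among which reads can be split, so these levels are uncertain. TUBB2B, a neuronal beta tubulin, was lower than in SH-SY5Y by -1.68 ± 0.11 in BE(2)C and -1.02 ± 0.11 in Kelly. GNB5, a G protein beta subunit, was lower than in SH-SY5Y by -1.74 ± 0.20 in BE(2)C, and GNB2, of the same family, by -1.68 ± 0.23 in Kelly. STAT3, a transcription factor folded by CCT, was higher in Kelly than in SH-SY5Y by 1.47 ± 0.17.

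The heat shock genes of the cytosol were mixed. Of 21 tested, 10 were called higher and 5 lower in BE(2)C than SH-SY5Y (2 and 10 with library totals only), 9 higher and 3 lower in Kelly than in SH-SY5Y (4 and 13 as deposited), and 9 higher and 6 lower in Kelly than in BE(2)C (12 and 2 with library totals only, 4 and 6 as deposited). HSF1, the transcription factor of the heat shock response, averaged 102 ± 10.3 scaled TPM in Kelly, 39.8 ± 2.19 in BE(2)C, against 66.2 ± 8.23 in SH-SY5Y. It was thus lowest in BE(2)C, where HSPD1 and HSPE1 were highest, with -0.71 ± 0.11 for BE(2)C over SH-SY5Y and 1.34 ± 0.11 for Kelly over BE(2)C, under every scaling. HSF1 activity was not measured, and its part in the levels of HSPD1 and HSPE1 was not tested. BAG3, an exchange factor of Hsp70, was higher than in SH-SY5Y by 2.31 ± 0.10 in BE(2)C and by 2.84 ± 0.10 in Kelly. ST13, which binds Hsp70, was higher than in SH-SY5Y by 1.61 ± 0.07 in BE(2)C and by 2.00 ± 0.07 in Kelly. HSPB1, a small heat shock protein, was higher in Kelly than in SH-SY5Y by 1.46 ± 0.07. HSPA8, the constitutive Hsp70, was among the implausibly low genes, at 1.91 ± 1.28 in Kelly, 11.7 ± 4.02 in BE(2)C, against 3.98 ± 0.954 in SH-SY5Y.

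The genes whose pattern over the 9 libraries was most like the mean of the 8 CCT genes were PPP2R2A (Pearson's r 0.997), MAPRE1 (0.994), ATP5H (0.992), AATF (0.991) and PSMB7 (0.989). PPP2R2A, a regulatory subunit of protein phosphatase and itself on the list of CCT clients, averaged 44.4 ± 2.70 scaled TPM in Kelly, 53.0 ± 6.92 in BE(2)C, against 30.6 ± 1.47 in SH-SY5Y. Those most like the mean of HSPD1 and HSPE1 were TRAM1 (0.997), ANXA2 (0.993), MAN1A1 (0.992), NUDT4 (0.992) and ENDOD1 (0.991). TRAM1, which serves protein entry into the endoplasmic reticulum, averaged 61.0 ± 5.49 in Kelly, 113 ± 9.45 in BE(2)C, against 47.2 ± 3.39 in SH-SY5Y. These coefficients were the highest of all tested genes by construction, over libraries that share 3 lines.

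The closest relatives of the subunit genes in the table were low. CCT6B, the second zeta subunit gene, had 1.88 and 2.48 scaled TPM in Kelly, 0.813, 2.00 and 2.92 in BE(2)C, against 1.67 and 1.32 in SH-SY5Y, with Kelly replicate 1 and SH-SY5Y replicate 2 listed at 0. It was not called in any comparison (adjusted p = 0.369 to 0.742). CCT8L2 was listed at 0 in all 9 libraries. Of the 3 chaperonin-like genes of the Bardet-Biedl group, which assemble a complex of the cilium, MKKS averaged 52.0 ± 5.21 scaled TPM in Kelly, 87.5 ± 17.3 in BE(2)C, against 38.9 ± 0.791 in SH-SY5Y, and was higher in BE(2)C than SH-SY5Y by 1.13 ± 0.14 under every scaling. BBS10 was lower in Kelly, by -0.66 ± 0.14 against SH-SY5Y and by -0.93 ± 0.14 against BE(2)C. TCP1 shares 397 exonic bases with ACAT2 and CCT4 shares 81 with COMMD1, each on the opposite strand, and 1757 of the exonic bases of CCT5 overlap AC012640.4, which is not in the table.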

How the data were processed

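The deposited table holds log10 values per gene symbol for 9 libraries of polyadenylated RNA. From the values themselves these are log10(TPM + 1), which the authors made with spike-ins in the same total. Per the submitters' processing notes, the tools were HISAT 0.1.6 and Salmon 0.3.2 and the build was GRCh38, with no role stated for either tool. The step from transcripts to genes and the use of strand are not given in the sources used here. Depth cannot be read from TPM, so it is unknown, intervals for counting error are not given, and the 3 libraries a line limit the precision. Of 19837 entries, 92 spike-ins and 11 markers were left out of the totals, and 28 entries that carry a date in place of a symbol counted towards the totals but were not tested.

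Values were turned back to TPM, rescaled over the gene entries and divided by an unweighted trimmed-mean factor (trimming 30% of the log ratios and 5% of the log levels from either end), giving scaled TPM. Genes that reached 1 in at least 3 libraries went into a fit of log2(scaled TPM + 1) with limma 3.58.1 (trend method, R 4.3.3), which took in all 9 libraries without a block and gave two-sided tests. A Benjamini-Hochberg adjusted p under 0.05 over all 13077 tested genes counts as called. Fold changes on that scale understate the change of low genes. The fit was checked on simulated data, where it called 143 of 200 changed genes and 4 unchanged genes. The simulation held no shifts between libraries like those of the spike-ins, so it cannot speak for them. No pair of libraries was identical.

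The alternatives were pseudocounts of 0.5 and 5, no filter, a filter of 5, 5 other scalings (library totals only, values as deposited, median-of-ratios, quantile normalization, and mitochondrial genes out of the total), only the 2 lines compared in the fit, a replicate block, and each library left out in turn. The HSPE1 to HSPD1 ratio was recomputed in ways chosen after seeing the data.

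The members and lists were chosen with earlier results of these data known. Named were the members, MYCN, up to 4 called genes a list and comparison with the largest change and at least 10 scaled TPM in the higher line, the 5 tested genes most alike to each chaperonin mean, and other chaperonin entries. Neighbours are tested genes within 5 Mb of a member, 12557 tested genes having a position. Promoter windows of 300 bases are from RefSeq on GRCh38.p14, for 9 of 10 members. Some genes of the marker lists are not reported here.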

Additional observations from a re-analysis of the deposited data

Results flagged for a closer look

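Each of 7 members had a Kelly change against SH-SY5Y that differed from its BE(2)C change by limma's test of Kelly against BE(2)C, in which the shared SH-SY5Y libraries cancel. The difference, Kelly minus BE(2)C on the log2 scale, was -1.26 for HSPE1 (0.58 in Kelly and 1.84 in BE(2)C), -0.85 for HSPD1 (0.46 in Kelly and 1.31 in BE(2)C) and -0.60 for CCT8 (0.47 in Kelly and 1.07 in BE(2)C). For these 3 genes the change was larger in BE(2)C. It was -0.77 for CCT5 (-0.13 in Kelly and 0.64 in BE(2)C) and -0.42 for CCT2 (-0.21 in Kelly and 0.21 in BE(2)C), where the estimates had opposite signs. The Kelly estimate of CCT5 and both estimates of CCT2 were not called. In BE(2)C that of CCT2 was 0.17 with median-of-ratios scaling and 0.00 with mitochondrial genes out. It was -0.25 with library totals, -0.36 as deposited and -0.13 with quantile normalization, so the opposite signs of CCT2 depend on the scaling. The difference was 0.47 for CCT4 (0.62 in Kelly and 0.16 in BE(2)C) and 0.32 for CCT7 (0.44 in Kelly and 0.12 in BE(2)C), the genes with the larger change in Kelly. With the values as deposited, the differences of CCT4 and CCT7 no longer passed, and with library totals that of CCT2 did not. Spike-ins shifted by up to 1.20 on the log2 scale between Kelly and BE(2)C. The differences of all members but HSPE1 were smaller than that, and HSPE1 exceeded it under some scalings only.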

How the results depend on the processing

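The values keep no read counts, so what depth limits cannot be given. Pseudocounts, filters, the 2-line fit and median-of-ratios scaling changed no direction of a member. Reversed with library totals only were CCT2 (-0.25), CCT4 (-0.30) and CCT7 (-0.35) in BE(2)C over SH-SY5Y and TCP1 (0.07) and CCT6A (0.22) in Kelly over BE(2)C. With the values as deposited, 3 members were called in Kelly over SH-SY5Y instead of 8. Reversed as deposited were TCP1 (-0.02), CCT2 (-0.36), CCT4 (-0.41), CCT6A (-0.08) and CCT7 (-0.45) in BE(2)C over SH-SY5Y, CCT3 (-0.07) in Kelly over BE(2)C, and TCP1 (-0.40), CCT4 (-0.09), CCT6A (-0.32), CCT7 (-0.27), CCT8 (-0.23), HSPD1 (-0.25) and HSPE1 (-0.13) in Kelly over SH-SY5Y. Reversed with quantile normalization were CCT2 (-0.13), CCT4 (-0.19) and CCT7 (-0.24) in BE(2)C over SH-SY5Y and CCT6A (0.07) in Kelly over BE(2)C, and with mitochondrial genes out CCT2 (0.00), CCT4 (-0.06) and CCT7 (-0.10) in BE(2)C over SH-SY5Y. In BE(2)C over SH-SY5Y the median of all genes was -0.44 with library totals, -0.35 as deposited and -0.23 with mitochondrial genes out, but 0.02 with quantile normalization, against -0.04 with trimmed-mean scaling; the cause of the reversals was not tested. The split of calls also moved: 48.2% of the genes called in BE(2)C over SH-SY5Y were higher, 23.8% with library totals, 18.9% as deposited and 36.5% with mitochondrial genes out, and in Kelly over SH-SY5Y 50.8%, 41.6%, 15.1% and 42.0%. In Kelly over BE(2)C these shares were 53.2%, 74.3%, 43.2% and 58.1%. Leaving out single libraries kept every direction except CCT3 in Kelly over BE(2)C (-0.02 without BE(2)C replicate 3, up to 0.12 without others). Without any filter TCP1 in Kelly over SH-SY5Y was lost (adjusted p = 0.0792). Same-numbered libraries did not deviate together (correlations of -0.0871 to 0.0345), which cannot exclude that they were prepared together. With the replicate number as a block, 7545, 6980 and 6634 genes were called in BE(2)C over SH-SY5Y, Kelly over SH-SY5Y and Kelly over BE(2)C, against 7763, 7233 and 6863 without it, and 7, 7 and 7 members, against 7, 8 and 7, with TCP1 lost (adjusted p = 0.0675).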

Other observations

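The chaperones of the endoplasmic reticulum were higher in BE(2)C, the line with the most HSPD1 and HSPE1. Of 12 listed genes, 10 were called higher and 0 lower in BE(2)C than SH-SY5Y (median log2 fold change 1.14), and 8 to 10 were higher and 0 lower under the 5 other scalings. Of all tested genes, 28.6% were called higher and 30.7% lower there (median -0.04). Between Kelly and BE(2)C, 0 of the listed genes were higher and 10 lower (median -0.89), with 7 lower under library totals. Of all tested genes, 27.9% were higher and 24.6% lower there (median 0.02), and spike-ins shifted by up to 1.20 on the log2 scale. Against SH-SY5Y, Kelly had 7 of the listed genes higher and 3 lower, but 2 higher and 6 lower with the values as deposited. With trimmed-mean scaling, 28.1% of all tested genes were higher there and 27.2% lower. HSPA5, the Hsp70 of this compartment, averaged 407 ± 34.3 scaled TPM in Kelly, 794 ± 85.1 in BE(2)C, against 200 ± 5.56 in SH-SY5Y (SD, n = 3 each). Its log2 fold change of BE(2)C over SH-SY5Y was 1.98 ± 0.09 (SE; limma, adjusted p = 1.69e-07). SDF2L1, its partner, was higher by 1.88 ± 0.09, DNAJB11, a J protein of HSPA5, by 1.69 ± 0.10, and DNAJC3, another J protein, by 1.58 ± 0.11, all under every scaling. CANX, the membrane lectin chaperone calnexin, averaged 335 ± 11.6 in Kelly, 690 ± 19.6 in BE(2)C, against 253 ± 8.61 in SH-SY5Y, and HYOU1, a large Hsp70 relative, averaged 4.79 ± 0.823 in Kelly, 21.6 ± 1.70 in BE(2)C, against 10.2 ± 1.44 in SH-SY5Y.

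Mitochondrially encoded genes took 17.6 ± 1.87% of the gene total in Kelly, 30.6 ± 5.52% in BE(2)C, against 17.7 ± 0.456% in SH-SY5Y (SD, n = 3 each). Their part in the levels of HSPD1 and HSPE1 was not tested; with these genes out of the total, HSPD1 and HSPE1 were higher in BE(2)C than SH-SY5Y by 1.10 and 1.63.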
